A study of Mus musculus with 42 samples.

Results

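Expression of Ghitm and of 9 further genes that shape the mitochondrial inner membrane was followed in bone-marrow-derived macrophages (BMDM). The 10 genes, Ghitm, Opa1, Immt, Chchd3, Apoo, Apool, Samm50, Letm1, Phb and Phb2, were taken by name from a count table of 37310 genes. All 10 passed the filter on low counts that left 11624 genes for testing. The table held 42 RNA-seq libraries in 14 groups of 3. Each library was labelled WT or KO and was untreated (Control, at 0, 2 and 24 h) or cultured with palmitate or LPS for 2 or 24 h. Per the study's methods, the KO came from mice in which floxed Irf5 was crossed with LysM-Cre. That Cre sits in the Lyz2 gene and is active in myeloid cells, so that Irf5, a transcription factor of inflammatory activation, is targeted mainly in macrophages and granulocytes. The Cre is present in the KO and the labels do not say whether the WT animals carried either allele alone. Per the same methods, the mice were young adult males, the purchased mice and the floxed line being C57BL/6. The strain name of the LysM-Cre line also lists a strain other than C57BL/6. The labels give no number of marrow donors per library. The cells were grown from marrow in medium conditioned by L929 cells. Palmitate, a saturated fatty acid, served as a model of lipid overload, and LPS, a bacterial cell wall component, as the classical inflammatory stimulus.

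The inner mitochondrial membrane is folded into cristae, which hold the respiratory chain. Ghitm (growth hormone inducible transmembrane protein, a member of the TMBIM family) lies in this membrane and is needed for ordered cristae. Immt (MIC60), Chchd3 (MIC19), Apoo (MIC26) and Apool (MIC27) are subunits of MICOS, the complex at the neck of each crista. Samm50 inserts barrel proteins into the outer membrane and joins MICOS in a bridge across both membranes. Opa1 is the GTPase that fuses inner membranes and narrows crista necks. Phb and Phb2 form the ring-shaped prohibitin scaffold, and Letm1 is a cation exchanger of the inner membrane.

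The promoter windows of Ghitm and of the 3 other genes that rose in libraries of both labels after 24 h of LPS are shown because IRF5 is a DNA-binding factor and these 4 genes share a call in that comparison, although Ghitm and Samm50 differed in opposite directions between labels. Each is RefSeq sequence of GRCm38.p6 from 250 bases before to 30 bases after the annotated start, read 5′ to 3′ along the gene. Capitals mark matches on either strand to CCGGAAG (the core bound by ETS factors) and AANATGGC (the core bound by YY1), and in Ghitm also GAAA (the core of an IRF half-site). Ghitm had 3 windows in that annotation, and the one nearest to its GENCODE start is given. The windows are chr14:37135225-37135504 on the minus strand (Ghitm), chr15:84191990-84192269 on the plus strand (Samm50), chr11:95666707-95666986 on the plus strand (Phb) and chr6:124712039-124712318 on the plus strand (Phb2).
Ghitm: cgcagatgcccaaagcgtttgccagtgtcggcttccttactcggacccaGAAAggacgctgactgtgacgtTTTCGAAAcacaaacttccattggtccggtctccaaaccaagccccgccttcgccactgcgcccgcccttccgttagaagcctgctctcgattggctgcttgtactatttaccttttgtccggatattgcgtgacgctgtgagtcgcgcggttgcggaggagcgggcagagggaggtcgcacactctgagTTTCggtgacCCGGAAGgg
Samm50: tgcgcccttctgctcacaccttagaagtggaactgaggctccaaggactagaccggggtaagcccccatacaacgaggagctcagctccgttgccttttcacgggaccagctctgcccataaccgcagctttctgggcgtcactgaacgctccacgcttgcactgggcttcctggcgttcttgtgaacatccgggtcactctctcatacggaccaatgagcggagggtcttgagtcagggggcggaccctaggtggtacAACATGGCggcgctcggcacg
Phb: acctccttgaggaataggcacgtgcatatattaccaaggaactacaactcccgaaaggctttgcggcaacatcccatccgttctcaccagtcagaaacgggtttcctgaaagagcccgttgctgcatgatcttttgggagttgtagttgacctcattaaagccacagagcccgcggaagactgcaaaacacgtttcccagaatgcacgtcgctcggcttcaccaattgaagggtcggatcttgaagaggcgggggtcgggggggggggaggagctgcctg
Phb2: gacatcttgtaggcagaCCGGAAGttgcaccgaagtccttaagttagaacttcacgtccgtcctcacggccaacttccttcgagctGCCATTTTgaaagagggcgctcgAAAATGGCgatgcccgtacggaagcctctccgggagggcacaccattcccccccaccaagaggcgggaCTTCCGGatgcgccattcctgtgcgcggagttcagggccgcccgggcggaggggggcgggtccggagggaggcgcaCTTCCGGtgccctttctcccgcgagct

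GAAA occurred 4 times in the Ghitm window on either strand. The windows of Phb, Phb2 and Samm50, where it is not marked, held it 5, 3 and 2 times. It is a short string that 88.2% of all 32851 windows of this length held, and 8 of the 10 genes had it. The paired form that IRF dimers prefer, 2 copies of GAAA separated by any 2 bases, was in none of the 10 windows and in 3.28% of all windows. From published binding data in BMDM, the study reported IRF5 at or upstream of the Ghitm start, which these short windows do not test. The ETS core was found for 4 of the 10 genes (Ghitm, Immt, Chchd3 and Phb2) and in 8.45% of all windows. The YY1 core was found for Samm50 and Phb2 and in 5.22% of all windows. The NRF1 core GCATGCGC was found for Opa1 alone, against 2.58% of all windows, and the cyclic AMP response element TGACGTCA for none of the 10, against 1.74%. All motifs were searched on both strands, and matches of different motifs could overlap.

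The labels and libraries were checked first. Libraries held 2848793 to 7743442 counts, so that 3 counts equalled 0.387 to 1.05 CPM (the count of a gene scaled to a common library size, with TMM factors). Irf5 did not bear out the labels. Its whole-gene count, which does not separate the exons, was higher in the libraries labelled KO (edgeR quasi-likelihood test, log2 fold change 0.27 ± 0.021 SE over the mean of 7 conditions, adjusted p = 8.09e-14). Lyz2, the gene that carries the Cre, was lower in them in every condition (log2 fold change -0.84 ± 0.036 over the mean of conditions, adjusted p = 1.86e-24). Groups are therefore called by their label throughout. The treatments were visible: Tnf rose by 4.77 after 2 h of LPS in WT (log2, adjusted p = 2.89e-40), and Plin2, which coats lipid droplets, by 1.99 after 24 h of palmitate (log2, adjusted p = 1.29e-30). All 7 macrophage markers (Adgre1, Csf1r, Cd68, Itgam, Mertk, Fcgr1, Cd14) were detected, summing to 4916 to 8753 CPM. Markers of other cells were present at lower levels, and those that moved with a comparison are given beside it. In bulk RNA, fewer cells of a type cannot be told apart from less RNA per cell.

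Ghitm was the most abundant of the 10 genes per kb of merged exon. Its mean level over the 14 groups was 33.6 CPM per kb of exon, and its group means ran from 24.2 to 51.9. The prohibitins followed, with Phb2 at 17.03 and Phb at 15.2 CPM per kb. Chchd3 stood at 13.8 and Opa1 at 13.6, and the 2 genes could not be ordered, since Chchd3 was the higher in 24 of 42 libraries. Immt (9.27 CPM per kb), Samm50 (8.86) and Letm1 (8.56) formed a level below, within which Immt was above Samm50 in 26 and Samm50 above Letm1 in 23 of 42 libraries. The MICOS apolipoproteins were scarce, with Apoo at 3.31 and Apool at 2.12 CPM per kb. In the order of levels only 3 steps held without overlap over all 42 libraries, namely Ghitm above Phb2, Opa1 above Immt, and Letm1 above Apoo. The length merges all annotated exons of a gene rather than those of 1 transcript, so this order depends on the annotation. In CPM alone the mean over the 14 groups was 126.3 for Ghitm, 107.3 for Opa1 and 105.2 for Immt. Apoo was read with as few as 2 counts in a library and Apool with 16, against 92 or more for each of the 8 other genes. Neither of these low genes could show small changes, as the SD of log2 CPM within groups was 0.51 for Apoo and 0.37 for Apool, and 0.084 to 0.14 for the others (median of all genes 0.20).

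**Figure D1:**
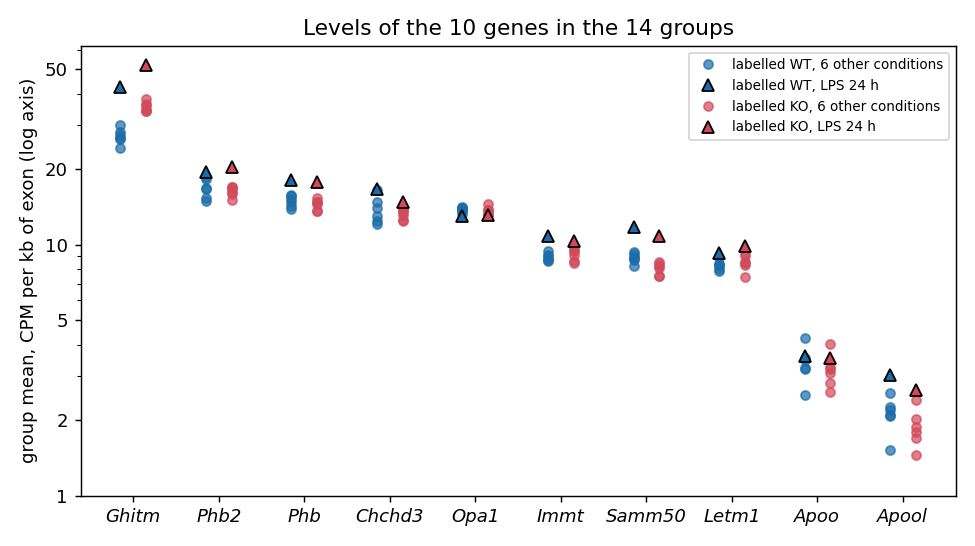
Mean level of each of the 10 genes in each of the 14 groups (y axis, CPM per kb of merged exon, log axis; x axis, genes in order of mean level). Circles are 6 conditions and triangles LPS at 24 h, blue for libraries labelled WT and red for KO; Ghitm lies above the other genes in every group and is split by label, while Opa1 is nearly level.

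Most of the 10 genes kept close levels across conditions. The distance between the lowest and highest group mean, in log2 CPM, was 0.15 for Opa1, a smaller range than in all but 0.0688% of the genes tested. It lay between 0.38 and 0.45 for Immt, Phb, Letm1, Phb2 and Chchd3, and 9.33% to 16.6% of genes had a smaller range than these. Samm50 spanned 0.65. Ghitm spanned 1.096, from 91.0 CPM in WT with palmitate for 2 h to 194.8 CPM in KO with LPS for 24 h, and 63.1% of genes had a smaller range. Apoo and Apool spanned 0.94 and 1.03 with the wide scatter given above. The median range of all genes was 0.85.

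**Figure D2:**
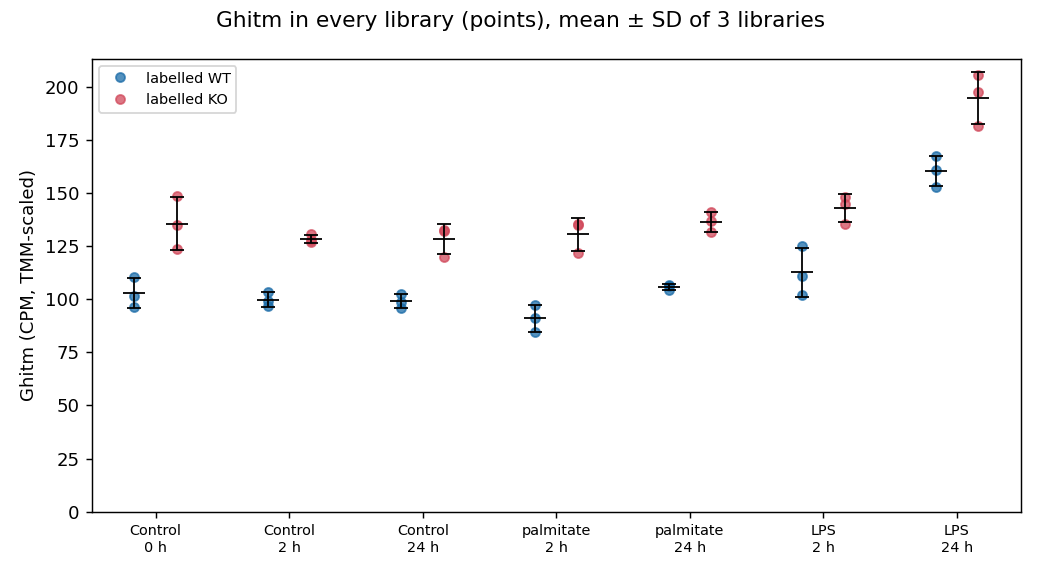
Ghitm in all 42 libraries (points; y axis, CPM with TMM scaling; x axis, condition), with the mean and SD of each group of 3 in black. In each of the 7 conditions the 3 libraries labelled KO (red) lie above the 3 labelled WT (blue), and LPS at 24 h is the highest for both.

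Ghitm was higher in the libraries labelled KO in all 7 conditions, and the 2 labels did not overlap in any of them. In Control at 0 h it stood at 110.6, 96.5 and 101.5 CPM in the WT libraries and at 134.9, 123.5 and 148.4 CPM in the KO libraries. In Control at 2 h the WT libraries gave 96.8, 103.4 and 99.3 CPM and the KO libraries 127.9, 130.5 and 126.7 CPM. In Control at 24 h the values were 96.0, 102.5 and 98.6 CPM for WT and 132.3, 132.1 and 120.1 CPM for KO. The untreated WT libraries thus never exceeded 110.6 CPM, and no untreated KO library fell below 120.1 CPM. With palmitate for 2 h, Ghitm was at 91.3, 84.4 and 97.3 CPM in WT and 135.3, 121.6 and 134.8 CPM in KO. With palmitate for 24 h it was at 106.4, 104.1 and 106.6 CPM in WT and 141.1, 131.5 and 136.6 CPM in KO. The widest gap between labels was that at 2 h of palmitate. With LPS for 2 h the WT libraries gave 102.0, 125.0 and 111.1 CPM and the KO libraries 145.0, 135.3 and 148.1 CPM. With LPS for 24 h they gave 152.8, 167.1 and 160.8 CPM against 197.3, 181.5 and 205.7 CPM. Both labels were highest there, and the gap between them remained.

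By the edgeR test, Ghitm passed in 6 of the 7 conditions. Its log2 fold change (KO over WT) was 0.40 ± 0.073 (SE) in Control at 0 h (adjusted p = 0.000129), 0.36 ± 0.073 at 2 h (adjusted p = 0.00853) and 0.37 ± 0.074 at 24 h (adjusted p = 0.0127). It was 0.52 ± 0.074 with palmitate for 2 h (adjusted p = 1.78e-05) and 0.37 ± 0.073 for 24 h (adjusted p = 0.011). It was 0.33 ± 0.076 with LPS for 2 h (adjusted p = 0.0241). With LPS for 24 h the difference of 0.28 ± 0.069 (95% interval 0.14 to 0.42) missed the threshold at adjusted p = 0.084. Over the mean of the 7 conditions Ghitm was 1.298-fold higher (log2 0.38 ± 0.028, 95% interval 0.32 to 0.43, adjusted p = 1.12e-14), the 5th smallest p of all genes. A test for a difference among the 7 conditions did not pass (adjusted p = 0.761). The study drew attention to Ghitm with these libraries among its data, so this direction is not independent evidence.

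The calls of Ghitm in single conditions were sensitive to single libraries, while its direction was not. Leaving out any 1 library moved the log2 fold change of a condition to no less than 0.24 and no more than 0.58. The call was lost in Control at 2 h without WT library 1 or KO library 2, and in Control at 24 h without WT library 1, 2 or 3 or KO library 1 or 2. It was also lost with palmitate for 24 h without WT library 1 or 3 or KO library 1 or 3, and with LPS for 2 h without WT library 1 or 3 or KO library 1 or 3. With LPS for 24 h the call was gained without KO library 2. Over the leave-one-out fits and the other alternatives, the adjusted p of Ghitm in those 5 conditions ranged from 0.000865 to 0.381. The call for the mean of conditions held in all 42 leave-one-out fits (log2 0.37 to 0.39).

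Few genes behaved in this way. Genes called in at least 6 of the 7 conditions numbered 6 (0.0516% of 11624), and those whose KO libraries lay above the WT libraries without overlap in all 7 conditions numbered 4 (0.0344%). The other 3 of these 4, named after their values were seen, were Lrrc27, Ltf and Lyz1. Ltf encodes the granule protein lactoferrin and Lyz1 a lysozyme next to Lyz2.

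Of the 9 other genes, Chchd3 and Samm50 each passed a genotype test, with lower values in the libraries labelled KO. Chchd3 stood at 49.0, 45.8 and 49.2 CPM in WT and 36.1, 35.6 and 37.1 CPM in KO in Control at 0 h, with no overlap (log2 fold change -0.40 ± 0.113, adjusted p = 0.0124). This call was lost without WT library 3 (adjusted p = 0.0507), and in the 6 later conditions Chchd3 was not called. Its difference among the 7 conditions did not pass (adjusted p = 0.175). Samm50 was not called in any single condition, but over the mean of the 7 it was lower by a small amount (log2 fold change -0.14 ± 0.035, 95% interval -0.21 to -0.07, adjusted p = 0.00429). Its value was below 0 in all 7 conditions, from -0.30 with LPS for 2 h to -0.05 with palmitate for 24 h.

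The remaining 7 genes were not called between labels in any condition or over the mean. Phb2 came closest in Control at 0 h, at 69.5, 66.6 and 72.2 CPM in WT against 63.0, 57.7 and 56.3 CPM in KO (log2 fold change -0.24 ± 0.085, adjusted p = 0.0564). Over the mean of conditions the 95% intervals of the well-counted genes were narrow. Opa1 lay between -0.08 and 0.04, Immt between -0.04 and 0.08, Letm1 between -0.03 and 0.11, Phb between -0.12 and 0.03 and Phb2 between -0.09 and 0.04, all on the log2 scale. None of these 5 intervals reached the 0.38 of Ghitm. For Apool the interval was -0.40 to 0.04 and for Apoo -0.35 to 0.22, so that changes of that size could not be seen for these genes.

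**Figure D3:**
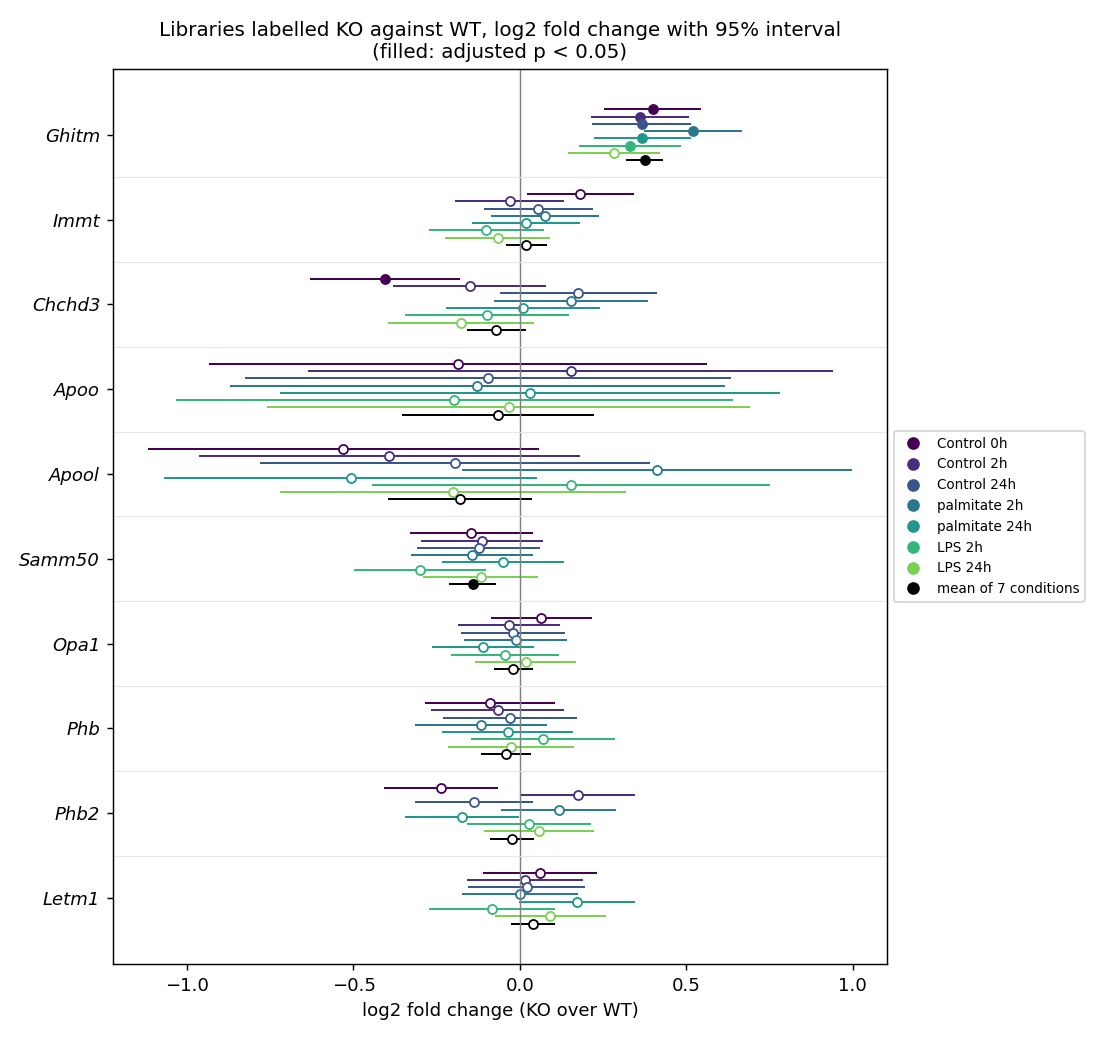
Log2 fold change of libraries labelled KO over WT (x axis) for the 10 genes (y axis) in the 7 conditions (colours) and over their mean (black). Points are edgeR estimates, bars 95% intervals, and filled points passed at adjusted p below 0.05; Ghitm lies right of 0 in all 7 conditions, Samm50 left of 0, and the bars of Apoo and Apool are the widest.

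Counted over the 10 genes, 2 were called in Control at 0 h (Ghitm higher, Chchd3 lower) where 12.5% of all genes were called (6.4% higher, 6.06% lower). In each of Control at 2 h, Control at 24 h, palmitate at 2 h, palmitate at 24 h and LPS at 2 h 1 gene, Ghitm, was called, against 0.49%, 0.12%, 0.146%, 0.0688% and 0.465% of all genes. With LPS for 24 h none was, against 0.146% (17 genes, or 33 by DESeq2, which also called Ghitm), and 1 of the 10 had an unadjusted p under 0.05. Over the mean of conditions 2 of 10 were called, against 11.4% (6.03% higher, 5.33% lower). The median log2 fold change of the 10 genes was -0.03 for that mean, and that of all genes was -0.0005. Libraries of the 2 labels did not overlap for 6 of the 10 genes in Control at 0 h, where 28% of all genes did not overlap either, and for 1 to 3 genes in the 6 later conditions, where 16.9%, 11.6%, 16.1%, 12.5%, 12.8% and 13.4% of all genes did not (in the order Control, palmitate and LPS, each at 2 h and then 24 h). The test of a difference among the 7 conditions called none of the 10 (2 had an unadjusted p under 0.05) and 2.11% of all genes (DESeq2 also called none of the 10).

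Markers of other cells moved with the label. Of 5 tested granulocyte precursor markers out of 8, 5 were higher in the libraries labelled KO over the mean of conditions, and the summed level of the list was 19.3 to 85.4 CPM in WT and 42.2 to 208.2 CPM in KO. Within every condition this sum was higher in each KO library than in any WT library, as it was for Ghitm. In Control at 24 h it was 53.5 to 63.9 CPM in WT and 134.8 to 208.2 CPM in KO. With LPS for 24 h it was 29.7 to 33.7 CPM in WT and 42.2 to 63.3 CPM in KO. Of 5 fibroblast markers 3 were tested and 3 were higher, with sums of 0 to 58.3 CPM in WT and 0 to 320.4 CPM in KO. Of the 4 cell cycle markers 2 were higher, with sums of 95.2 to 741.0 CPM in WT and 114.2 to 911.3 CPM in KO. Of 3 tested dendritic cell markers out of 4, 2 were higher, with sums of 0.883 to 5.16 CPM in WT and 0.727 to 9.09 CPM in KO. Of the 7 macrophage markers 2 were higher and 2 lower, with sums of 4916 to 8753 CPM in WT and 5106 to 8139 CPM in KO. The 3 endothelial markers and the 1 tested B cell marker were not called for that mean. In Control at 0 h, 1 endothelial and 1 B cell marker were lower in KO, while the 3 tested fibroblast markers were higher (0.517 to 0.883 CPM in WT, 43.3 to 70.0 CPM in KO). Defining markers of red cells were at or near 0, with no Hbb-bs count in any library. The part of these cells in the Ghitm result was not tested. With palmitate for 24 h the fibroblast list summed to at most 10.4 CPM in all 6 libraries. The granulocyte precursor list there summed to 60.7 to 85.4 CPM in WT and 109.7 to 165.5 CPM in KO. A fit added after the values were seen left out the 18 libraries with a fibroblast sum above 10 CPM (4 WT, 14 KO). It kept 4 conditions in both labels, palmitate and LPS at 2 and 24 h. No Control condition was kept, as every KO library there was left out. Palmitate at 2 h and LPS at 24 h had 1 KO library each, which was assumed to vary like the other groups. This fit does not test the part of these cells. In it Ghitm was higher over the mean of those conditions by 0.33 ± 0.051 (log2, adjusted p = 0.000132), where 0.728% of 11943 genes were called. Samm50 then gave -0.19 ± 0.066 and was no longer called (adjusted p = 0.228). In the same fit, Ghitm was at 0.35 with palmitate for 24 h (adjusted p = 0.0953, 0.201% of genes called) and 0.37 with LPS for 2 h (adjusted p = 0.064, 0.327% of genes called).

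The genes around Ghitm on chromosome 14 were not called with it. Ghitm lies at chr14:37120092-37135272 on the minus strand (GENCODE M21, GRCm38, the assembly also called mm10). Of the 5 nearest tested genes on each side, which reached 2810 and 7998 kb away, none was called by edgeR between labels over the mean of conditions, against 11.4% of all genes. DESeq2 called none either, and 1 of the 10, Glud1 at -0.05, had an unadjusted p under 0.05. The nearest on the side of lower coordinates was Ccser2, 151 kb away (log2 fold change 0.02 ± 0.045, 95% interval -0.07 to 0.11), and the nearest on the other side Tspan14, 3771 kb away (-0.05 ± 0.039, 95% interval -0.12 to 0.03).

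A further question of the study is whether Irf5 and Ghitm vary in opposite directions. The study reported this among other data in adipose tissue macrophages of mice on short- or long-term high-fat diet. Here the cells were BMDM, and each gene was expressed as log2 CPM and centred on its group mean. Only differences among the 3 libraries of a group remained, so the values below are not a repeat of the study's correlation. Over all 42 libraries Pearson's r of Ghitm with Irf5 was -0.14 and Spearman's rho -0.34, and neither passed a permutation test (p = 0.553 and 0.08, adjusted over the 10 genes p = 0.826 and 0.8). When the 2 libraries farthest from the median Irf5 level before centring were dropped, both KO with LPS for 2 h, r was -0.16. This rule does not drop the libraries that lay farthest from their group mean. Each label was then taken alone. In the 21 WT libraries r was -0.71 (permutation p = 0.00198, adjusted over 20 correlations p = 0.0396). It was between -0.83 and -0.64 when any 1 library was left out. Without the 2 WT libraries farthest from the median Irf5 level before centring, both with LPS for 2 h, it was -0.80. In the 21 KO libraries r was 0.26 (permutation p = 0.524, adjusted p = 0.941), and between -0.09 and 0.45 when any 1 was left out. KO Control 0 h libraries 2 and 3 lay farthest from their group mean. Library 2 was at -0.12 for Irf5 and -0.13 for Ghitm, and library 3 at 0.11 and 0.13. The positive sign in KO therefore leans on this group, and r without the whole group was not computed. These p-values within a label were added after the values were seen, and the difference between labels was not tested. None of the 9 other genes passed, with r from -0.26 (Apoo) to 0.16 (Letm1) over all libraries. These are differences of at most 0.15 in log2 CPM. Between the labels, both Irf5 and Ghitm were higher in the libraries labelled KO over the mean of conditions. By the edgeR test the Irf5 difference varied among the 7 conditions (adjusted p = 0.00106). It was not called in Control at 24 h, palmitate at 2 h or LPS at 2 h. With palmitate for 2 h, where the Ghitm gap was widest, Irf5 differed by 0.04 ± 0.056 (log2, adjusted p = 0.895). The whole-gene count of Irf5 does not separate the exons, so it cannot say how much intact transcript those libraries held. The relation was therefore not tested between labels.

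**Figure D4:**
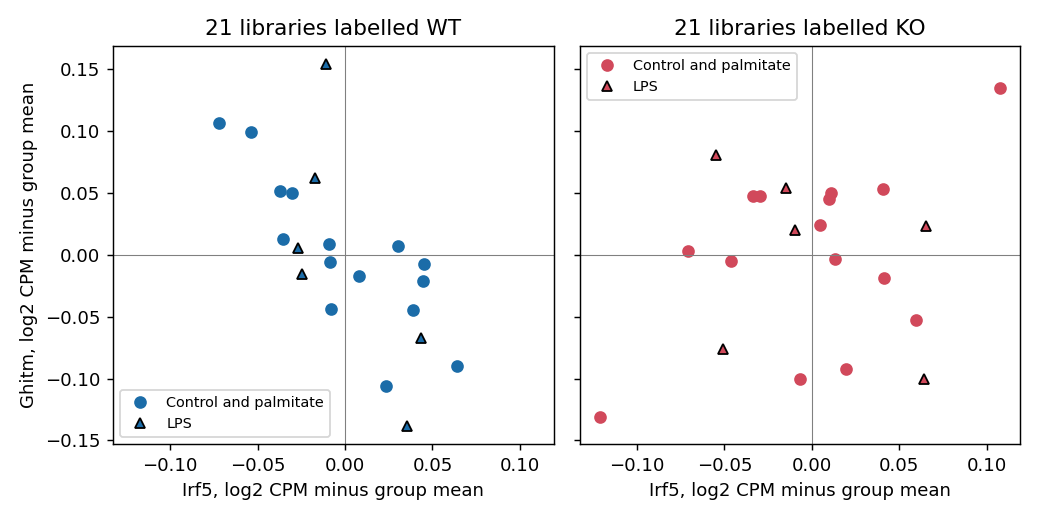
Ghitm against Irf5, each as log2 CPM minus the mean of its group of 3, in the 21 libraries labelled WT (left) and the 21 labelled KO (right); triangles are LPS libraries. Pearson's r is -0.71 on the left and 0.26 on the right, where KO Control 0 h libraries 2 and 3 are the points farthest from the centre.

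After 24 h of LPS, Ghitm rose in the libraries of either label, with the largest estimate of the 10 genes (the interval of Apool, -0.01 to 1.08 in WT, held it too). In WT, Ghitm went from 99.0 ± 3.27 CPM (SD, n = 3) in Control to 160.2 ± 7.17 CPM with LPS, or 0.69 ± 0.073 (SE) on the log2 scale (adjusted p = 2.31e-11). In KO it went from 128.2 ± 7.03 to 194.8 ± 12.3 CPM, or 0.61 ± 0.07 on the log2 scale (adjusted p = 3.44e-10). The 2 responses differed by -0.08 (95% interval -0.29 to 0.12, adjusted p = 0.982). The first 2 h of LPS gave smaller values, 0.18 ± 0.076 in WT (adjusted p = 0.075) and 0.15 ± 0.074 in KO (adjusted p = 0.138). Their mean, a comparison added after the values were seen, was 0.17 ± 0.053 (adjusted p = 0.0103, where 34.2% of all genes were called), a call lost without WT LPS library 2 and with no filter on low counts.

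Samm50, Phb and Phb2 also rose in the libraries of both labels. Samm50 in WT was at 60.6, 56.9 and 63.5 CPM in Control and 76.7, 79.9 and 74.4 CPM with LPS. In KO it was at 60.8, 53.9 and 52.5 CPM and at 72.0, 70.0 and 70.7 CPM. The treated libraries lay above the untreated in each label, with log2 fold changes of 0.35 ± 0.089 (adjusted p = 0.00113) and 0.36 ± 0.089 (adjusted p = 0.00102). Phb2 in WT was at 65.7, 63.1 and 58.7 CPM in Control and 67.1, 73.6 and 77.6 CPM with LPS. In KO it was at 50.4, 61.1 and 57.3 CPM and at 71.3, 74.7 and 81.4 CPM. The rise was 0.23 ± 0.085 in WT (adjusted p = 0.0281) and 0.42 ± 0.085 in KO (adjusted p = 5.06e-05). Phb, its partner in the scaffold, went from 42.6 ± 2.0 to 50.7 ± 4.22 CPM (SD, n = 3) in WT and from 41.7 ± 4.41 to 49.7 ± 2.81 CPM in KO, or 0.25 ± 0.097 (adjusted p = 0.032) and 0.26 ± 0.097 (adjusted p = 0.0294). The WT calls of Phb and Phb2 were lost with all genes with a count tested (adjusted p = 0.163 and 0.136) and with only the libraries compared (adjusted p = 0.0629 and 0.0596), and that of Phb in KO with all genes with a count tested (adjusted p = 0.153).

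The core MICOS genes were less uniform. Immt stood at 112.3, 94.3 and 104.0 CPM in WT Control and at 122.7, 123.8 and 124.2 CPM with LPS (log2 fold change 0.26 ± 0.081, adjusted p = 0.00737). In KO the value was 0.14 ± 0.08 (adjusted p = 0.167). Chchd3 rose in WT from 36.2, 33.1 and 36.3 CPM to 41.8, 55.9 and 48.2 CPM (0.47 ± 0.114, adjusted p = 0.000708) and gave 0.12 ± 0.113 in KO (adjusted p = 0.442). Neither difference between labels passed (Chchd3 -0.35, 95% interval -0.68 to -0.03, adjusted p = 0.924; Immt -0.12, 95% interval -0.35 to 0.11, adjusted p = 0.974). Letm1 was called in KO (0.23 ± 0.085, adjusted p = 0.0272) and gave 0.16 ± 0.086 in WT (adjusted p = 0.15). Apool gave 0.53 in each label without passing (adjusted p = 0.119 and 0.133), and passed over the mean of both (0.53 ± 0.195, adjusted p = 0.0198). Opa1 was not called, with -0.06 (95% interval -0.22 to 0.09) in WT and -0.02 (95% interval -0.18 to 0.13) in KO. Apoo was not called, with intervals that reached from -0.96 to 0.49 in WT.

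**Figure D5:**
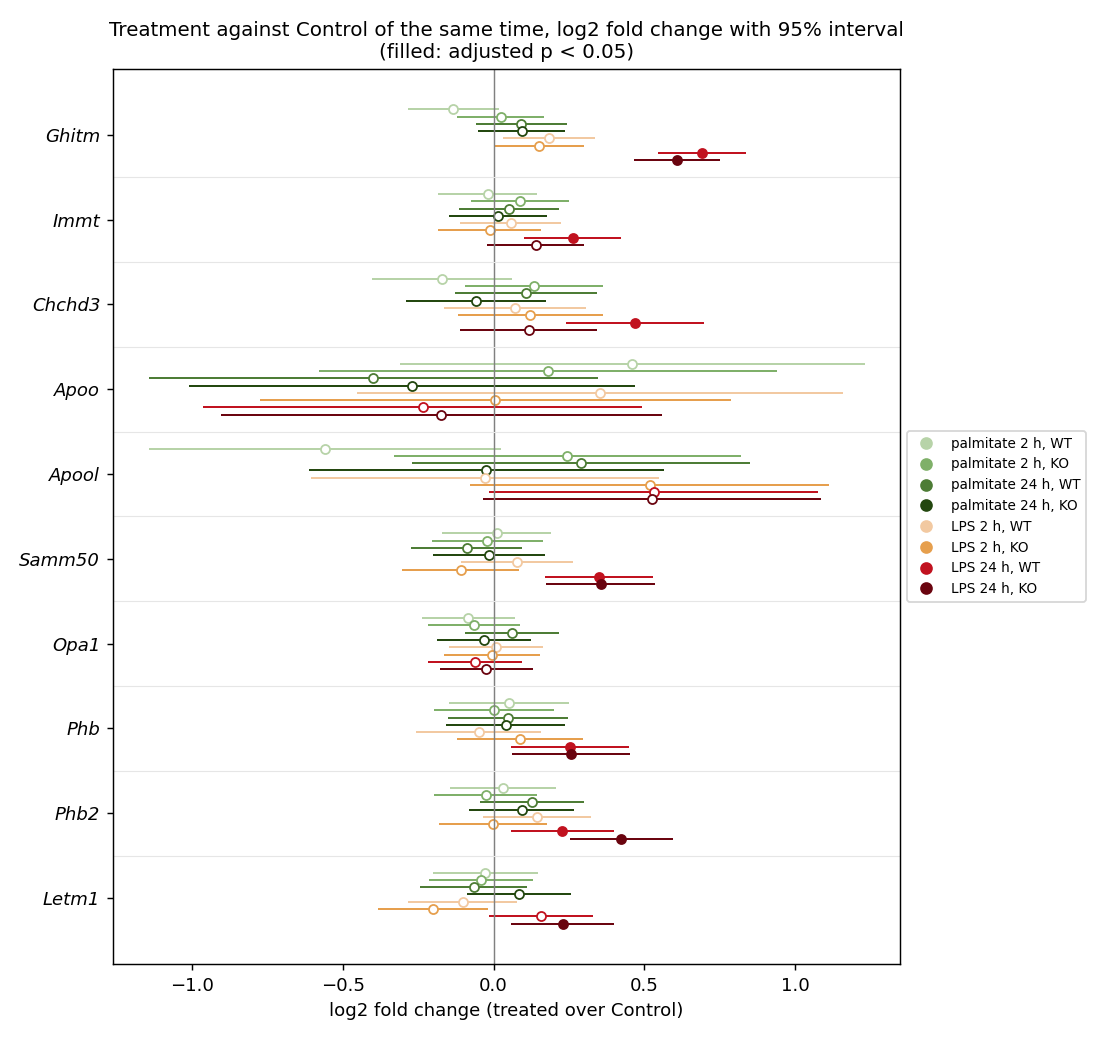
Log2 fold change of treated over Control libraries of the same time (x axis) for the 10 genes (y axis), for palmitate (greens) and LPS (orange to dark red) at 2 and 24 h in WT and KO. Points are edgeR estimates, bars 95% intervals, and filled points passed at adjusted p below 0.05; LPS at 24 h has filled points, up to 0.69 for Ghitm, and palmitate and LPS at 2 h have none.

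In number, 6 of the 10 genes rose after 24 h of LPS in WT and 5 in KO, and none fell. LPS at that time called 39.5% of all genes in WT (19.6% higher) and 40.9% in KO (19.9% higher). The median log2 fold change of the 10 was 0.26 in WT and 0.24 in KO, against -0.01 for all genes in each. Over the mean of both labels, added after the values were seen, 8 of 10 rose (all but Opa1 and Apoo), where 52.1% of all genes were called and 25.6% were higher. In KO the count fell to 3 (Ghitm, Samm50 and Phb2) without Control library 2, without LPS library 1, or with no filter on low counts. In WT it was 4 to 6 in the leave-one-out fits. Immt was lost without Control library 2 (adjusted p = 0.0759), and Phb and Phb2 each without Control library 3, LPS library 2 or LPS library 3 (adjusted p from 0.0664 to 0.154). Letm1 in KO was lost without Control library 1 or 2 or LPS library 1, and Apool over both labels without WT Control library 3 or KO Control library 2 or 3. Libraries did not overlap for 8 of the 10 genes in WT, where 48.1% of all genes did not, and for 5 in KO, where 50.2% did not. No genotype by LPS interaction was called for the 10 genes at 2 h or 24 h, where 0.0% and 0.0086% of all genes were called (DESeq2 called none of the 10 either, and 0 and 1 of the 10 had an unadjusted p under 0.05).

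At 2 h of LPS none of the 10 genes was called in WT or KO, although 23.1% and 23.9% of all genes were. Unadjusted p was under 0.05 for 1 gene in WT (Ghitm) and 2 in KO (Ghitm and Letm1), and DESeq2 called none in either. Markers of other cells moved with 24 h of LPS as well. All 4 cell cycle markers fell, their sum being 331.4 to 400.8 CPM in Control and 95.2 to 128.1 CPM with LPS. Of 5 tested granulocyte precursor markers 4 fell, with sums of 53.5 to 208.2 and 29.7 to 63.3 CPM. All 3 tested dendritic cell markers fell, with sums of 2.34 to 9.09 and 1.29 to 3.54 CPM. All 3 endothelial markers rose, with sums of 8.84 to 17.8 and 27.2 to 31.5 CPM. Of the 7 macrophage markers 5 rose and 2 fell, with sums of 5297 to 5411 and 7966 to 8753 CPM. Their part in the rise of the 10 genes was not tested. Without the libraries above 10 CPM of fibroblast markers, the rise of Ghitm in WT was 0.69 ± 0.091 (adjusted p = 5.96e-08), and 4 of the 10 genes were called, where 31.7% of 11943 genes were.

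None of the 10 genes passed the test with palmitate at 2 h in WT, 24 h in WT, 2 h in KO or 24 h in KO, where 0.275%, 0.852%, 0.112% and 0.877% of all genes were called. By DESeq2 none passed either, and none had an unadjusted p under 0.05. The estimates ran from -0.56 (Apool) to 0.46 (Apoo), both at 2 h in WT, and the wide intervals of these low genes leave room for changes. For Ghitm the log2 fold change was -0.13 (95% interval -0.28 to 0.02) at 2 h and 0.09 (-0.06 to 0.24) at 24 h in WT. In KO it was 0.02 (-0.12 to 0.17) at 2 h and 0.09 (-0.05 to 0.24) at 24 h. No genotype by palmitate interaction was called at either time for any gene (0.0% of 11624 by edgeR, none by DESeq2, with 486 and 411 genes at an unadjusted p under 0.05), and that of Ghitm at 2 h was 0.16 (95% interval -0.05 to 0.37, adjusted p = 0.998). Over the mean of both labels palmitate again called none of the 10, against 0.542% of all genes at 2 h and 2.57% at 24 h.

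Time in culture without treatment did not move the 10 genes past the threshold either, with 16.7% of all genes called at 2 h and 16.5% at 24 h against 0 h. None of the 10 passed by edgeR or DESeq2, and 0 at 2 h and 1 at 24 h had an unadjusted p under 0.05. Samm50 was nearest (0.16 ± 0.065 at 24 h, adjusted p = 0.0778), and it was called once WT Control 0 h library 3 was left out. Ghitm was at -0.06 (95% interval -0.16 to 0.04) at 2 h and -0.07 (-0.17 to 0.04) at 24 h.

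The pattern of Ghitm over the 14 group means was set beside those of 11242 genes averaging 1 CPM or more, as a description. The 5 most alike by Pearson's r of log2 CPM were Ing1 (0.91), Ddx39 (0.90), Vcan (0.90), Nsd3 (0.89) and Treml2 (0.88). Ing1 and Nsd3 encode chromatin proteins, Ddx39 an RNA helicase, Vcan a matrix proteoglycan and Treml2 a receptor of myeloid cells. Among the other 9 genes, r with Ghitm was highest for Immt (0.65), Letm1 (0.54), Phb2 (0.53) and Phb (0.49), and lowest for Opa1 (-0.38). Without the LPS groups at 24 h, r was 0.73 to 0.84 for the 5 most alike, but 0.25 for Immt, 0.07 for Letm1, -0.04 for Phb2 and -0.32 for Phb, and Samm50 went from 0.32 to -0.74. Over the 7 means of 1 label, LPS included, Samm50 was at 0.89 in WT and 0.80 in KO.

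Further genes of mitochondrial membranes, with partners at the endoplasmic reticulum and the relatives of Ghitm, were counted from 6 lists of 55 genes, of which 51 were tested. Over the mean of conditions 4 of the 51 differed between labels (3 higher, 1 lower in KO), where 11.4% of all genes did. They were Inf2 (log2 fold change 0.14), which promotes fission at contacts with the endoplasmic reticulum, Pgs1 (0.16) and Taz (0.18), which make and remodel cardiolipin, the lipid of the inner membrane, and Mfn2 (-0.10), a fusion GTPase of the outer membrane. Inf2 and Mfn2 were 2 of 12 tested genes of the fusion and fission list, and Pgs1 and Taz 2 of 10 of the cardiolipin list. The other lists were 7 further MICOS and bridge genes, 9 tested proteases and scaffolds, 4 tested TMBIM relatives of Ghitm and 9 ion transport genes. In Control at 0 h, where 12.5% of all genes were called, Pgs1 (0.83) and the exchanger Slc8b1 (0.38) were higher and Tmbim6 (-0.19) was lower.

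After 24 h of LPS, 21 of the 51 genes were called in WT (16 higher, 5 lower) and 21 in KO (16 higher, 5 lower), beside the 39.5% and 40.9% of all genes. All 4 tested relatives of Ghitm were called in each label. Grina rose by 0.79 in WT and 0.92 in KO, Tmbim6 (BAX inhibitor of the endoplasmic reticulum) by 0.64 and 0.65, and Tmbim4 by 1.01 and 0.99, all on the log2 scale, while the remaining relative fell. Of the cardiolipin list 4 of 10 rose in each label and none fell, among them Ptpmt1 (0.64 in WT, 0.50 in KO) and Pisd (0.46 and 0.65). Of the fusion and fission list 4 of 12 were called in WT and 5 in KO, with Inf2 at -1.27 and -1.45, Mfn2 at 0.44 and 0.25, and Fis1, the fission receptor, at 0.40 and 0.52. Of the ion transport list, Mcub, the inhibitory subunit of the calcium uniporter, rose by 0.92 and 0.77, and Slc8b1, the sodium-calcium exchanger, by 0.37 and 0.63. Of the proteases and scaffolds, Htra2, an intermembrane protease, rose by 0.35 and 0.41, and Afg3l2, an AAA protease, was at -0.30 and -0.44. Micos10 was the 1 gene of 7 called among the further MICOS and bridge genes (0.79 in WT, adjusted p = 3.5e-07). It gave 0.15 in KO (adjusted p = 0.359), and the difference between labels did not pass (-0.64, 95% interval -0.98 to -0.30, adjusted p = 0.796).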

How the data were processed

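Total RNA was ribodepleted, converted to strand-specific libraries and read from both ends. The authors aligned reads with STAR 2.7.3a to mm10 (fastp 0.19.11 is also named in the submitters' processing notes) and deposited raw counts per gene. Columns name groups only, so library numbers follow column order and pair nothing, and nothing says that the 3 libraries came from separate animals. P-values measure the spread between these libraries. The annotation release and strand setting of the counting are not given in the sources used here, so overlapping genes are uncertain. Those that were counted, Gm15884 and Gm23547 in Phb2, Gm14540 in Chchd3 and Gm10059 in Letm1, held at most 7 counts a library, and the pseudogene Apoo-ps at most 1. No 2 libraries of a group agreed within sampling noise (chi-square per degree of freedom 1.93 to 9.32 over 42 pairs).

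Counts were tested in R 4.3.3 with edgeR 4.0.16 (quasi-likelihood test, TMM, filterByExpr, 1 mean per group, all 42 libraries), with Benjamini-Hochberg adjustment over 11624 genes and a threshold of 0.05. The script was tested on simulated data. CPM are TMM-scaled, and log2 CPM have a prior count of 2. The alternatives were RLE factors, all genes with at least 1 count, only the libraries compared, DESeq2 1.42.0 (the study's tool) and leaving out each library. Correlations used 100000 permutations within groups, two-sided. Members and lists were chosen with earlier results of these data known. Named genes are the 10 members, the checks, at most 3 called genes per list and family of comparisons with the smallest adjusted p, the 5 nearest genes a side and the 5 of most similar pattern. Exon lengths are from GENCODE M21, and 32620 of 37310 identifiers matched it. Some results of the lists are not reported here.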

Additional observations from a re-analysis of the deposited data

How the results depend on the processing

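No paired analysis was possible because the columns carry no replicate numbers. No result reversed under any alternative. In all, 114 values were recomputed with another normalisation, filter, choice of libraries or tool. They were counts of called genes, with 3 counts of called correlations and 1 mean level of Ghitm among them. Of these, 107 stayed at 0 or within 1.5 times the reported value, as did 269 of 294 counts with 1 library left out. Most reported counts were 0, so these shares say little about counts above 0. The count between labels in Control at 24 h changed in 5 of 6 leave-one-out fits. The count for LPS at 24 h in KO was 3 when all genes with a count were tested, and the count for LPS at 2 h over both labels was then 0. Between labels at 2 h of LPS it was 0 with only the libraries compared, and at 24 h of LPS it was 1 by DESeq2. Without the libraries with fibroblast markers the count was 1 over the mean of conditions, 0 with palmitate for 24 h and 0 with LPS for 2 h, where 0.728%, 0.201% and 0.327% of all genes were called in a fit of 24 libraries. The cause was not tested.

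With 1 library left out, the count between labels was 1 to 2 in Control at 0 h and 0 to 1 in Control at 2 h, Control at 24 h, palmitate at 24 h, LPS at 2 h and LPS at 24 h. It was 0 to 1 for LPS at 2 h in WT, 3 to 5 for LPS at 24 h in KO, 0 to 1 for Control at 24 h against 0 h and 0 to 2 for LPS at 2 h over both labels. RLE factors moved the group means of the 10 genes by -0.609% to 0.553%. Depth limits Apoo and Apool most. The correlation of Ghitm with Irf5 over both labels was -0.02 without the LPS libraries. It was -0.16 without the 2 libraries farthest from the median Irf5 level before centring. Within 1 label, r without the LPS libraries was -0.81 in WT and 0.47 in KO (15 libraries each). The KO value still includes the Control 0 h libraries that lay farthest from their group mean.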
